A study of Mus musculus with 37 samples.

Results

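Degraded and better preserved RNA of the bladder were compared in mice that had received BBN, to see which transcript classes gained or lost share when RNA integrity was low. BBN (N-butyl-N-(4-hydroxybutyl) nitrosamine) is a carcinogen of the urinary tract, given here to female wild-type (WT) BALB/c mice for 18 weeks. The groups were formed by the RNA integrity number (RIN), a score read from the electrophoresis of the extracted RNA, in which degraded RNA scores low. The bladders of mice 1, 3 and 4 had a RIN under 5 (3 libraries, called low-RIN bladders) and those of mice 2, 5, 7, 8, 9 and 10 a RIN of 5 or more (6 libraries, called higher-RIN bladders). These 9 libraries are part of 37 in the series, which also holds 3 bladders of untreated mice of the same strain and sex, 24 ureters of treated and untreated mice, and the BBN bladder of mouse 6, which the grouping leaves out. The RIN of that bladder is also 5 or more, but its name in the count table carries the letter T, which marks cancer tissue among the ureters, where those of the other 9 BBN bladders carry N. Its other labels do not say whether it held a tumour, so results lost when it is added to the higher-RIN group are given with that limit. All tissue had been kept in RNAlater, a solution that protects RNA, and each library came from the bladder of a single mouse. The split uses no expression value. RIN was not assigned by design, so any other way in which mice 1, 3 and 4 differed cannot be told apart from it.

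RNA is lost after sampling through cleavage by ribonucleases and by hydrolysis. A messenger RNA that has been cut no longer joins its cap, coding region and poly(A) tail in a single molecule, and a longer molecule offers more places to be cut. Structured RNAs, RNAs bound in ribonucleoprotein particles and RNAs without a poly(A) tail can behave differently from an ordinary messenger RNA.

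The coding sequence of Rpl41 is shown because it is among the shortest of the cytosolic ribosomal proteins, a class that gained share in each low-RIN bladder. Rpl41 encodes a small basic protein of the large ribosomal subunit (chr10:128548114-128549305 of GRCm38, minus strand). Capitals mark the start and stop codons of its 78 bases, read 5′ to 3′ from a GENCODE vM21 transcript.
Rpl41: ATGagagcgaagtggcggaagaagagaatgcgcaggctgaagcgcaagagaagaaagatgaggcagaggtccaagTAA

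The 3′ ends of replication-dependent histone genes are shown because their messenger RNAs end in a stem-loop in place of a poly(A) tail, so this class differs from other messenger RNAs in how its end is made. Capitals mark the stem-loop, found with the letters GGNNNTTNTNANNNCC on the transcript strand within the last 100 bases of the annotated transcript, from GENCODE vM21 on GRCm38. The sites lie in the 3′ untranslated regions, at chr13:21810892-21810919 for Hist1h2ao, chr13:23531452-23531479 for Hist1h4h and chr13:22036294-22036321 for Hist1h2bk, each on the plus strand.
Hist1h2ao: aaaaaaGGCTCTTTTCAGAGCCatccac
Hist1h4h: accaaaGGCCCTTTTCAGGGCCgcccac
Hist1h2bk: accaaaGGCTCTTTTAAGAGCCactaaa

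The low-RIN libraries were shallower, with 6335556, 3557697 and 7820510 counts for mice 1, 3 and 4, against 11150685 to 15104379 in the higher-RIN libraries (two-sided exact permutation test, p = 0.0238). This is the smallest p that 3 against 6 libraries can give, and it is reached whenever the groups do not overlap. Their 10 most abundant genes took 21.5% to 29.5% of the counts, against 5.17% to 6.84%. Of 17510 genes tested with edgeR's quasi-likelihood test (adjusted p under 0.1 and at least 2-fold), 5677 (32.4%) were higher and 4497 (25.7%) lower in low-RIN bladders. These p-values take each bladder as an independent sample of its group. A few classes took so large a share of the low-RIN libraries that the direction of a middling gene depended on the scaling. With TMM scaling the median log2 fold change of all genes was 0.03 and 55.8% of the calls were higher. With RLE scaling these values were 0.24 and 62.8%, and with library totals alone they were -0.98 and 31.2%. Shares of counts, in percent of a library's counts, are given first, and log2 fold changes are those of TMM. A share is relative to the library total, so it is on the scale of library totals alone, and a class can lose share while its median log2 fold change with TMM is above 0.

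Most classes shifted. Of 36 classes compared as a share of counts, 32 had an unadjusted p under 0.05 and 31 an adjusted p under 0.05 (two-sided exact permutation tests with Benjamini-Hochberg adjustment over the classes, adjusted p = 0.0276 where the groups did not overlap). Cytosolic ribosomal proteins, Rn45s and short transcripts gained share, and transcripts of 2000 bases or more lost it. Transcripts under 500 bases, 1711 genes by the length of their longest annotated transcript, held 4.86%, 5.60% and 4.76% of the counts in mice 1, 3 and 4 and 0.446% to 0.680% in higher-RIN bladders, a mean 9.79 times as large. Transcripts of 500 to 1000 bases held 29.0% ± 2.997 (SD, n = 3) against 7.32% ± 1.11 (SD, n = 6). Between 1000 and 2000 bases the groups overlapped, at 24.9% ± 2.89 (SD, n = 3) and 24.3% ± 1.36 (SD, n = 6) (exact permutation test, p = 0.643). Transcripts of 2000 to 4000 bases held 19.9% ± 1.20 (SD, n = 3) against 39.4% ± 0.307 (SD, n = 6), and transcripts of 4000 bases or more 9.11% ± 1.45 (SD, n = 3) against 25.5% ± 2.46 (SD, n = 6). In the 3 untreated bladders the last 2 classes held 38.1% to 38.3% and 26.6% to 28.2%, closer to the higher-RIN than to the low-RIN bladders.

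**Figure D1:**
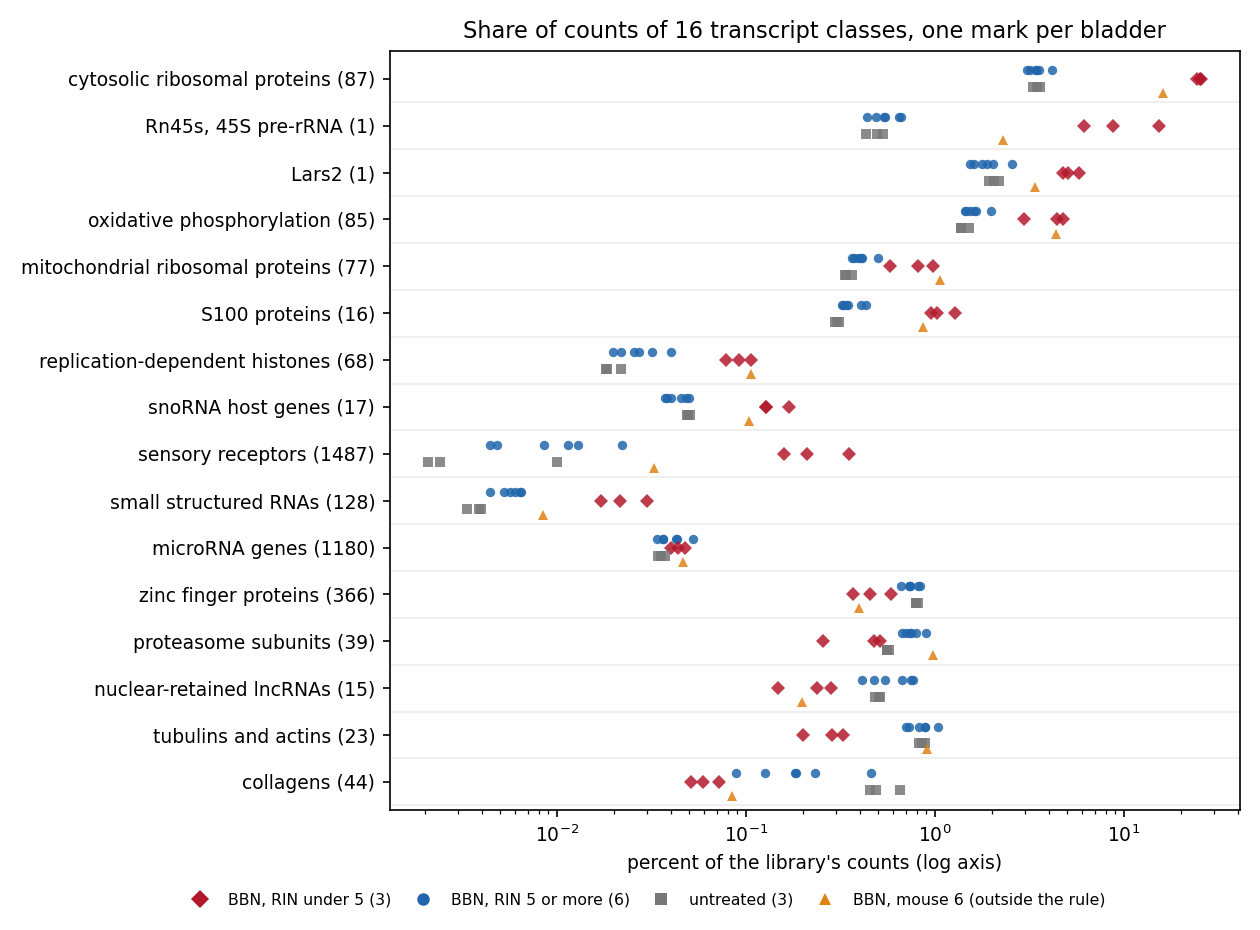
Percent of a library's counts (log axis) held by 16 transcript classes, with 1 mark for each of the 3 low-RIN, 6 higher-RIN and 3 untreated bladders and the BBN bladder of mouse 6, and the number of genes in parentheses. The low-RIN marks lie to the right of all higher-RIN marks for the first 10 classes, overlap with them for microRNA genes and lie to their left for the last 5.

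The genes of the cytosolic ribosome rose together. Most of the 87 genes of this list encode proteins of the ribosome that are made in nearly all cells from short, abundant messenger RNAs. The rest are paralogs and copies, some of low level, such as Rpl3l, Rpl10l and Rpl39l, and others not, such as Rps27l. The 87 genes held 24.4%, 25.6% and 25.4% of the counts in mice 1, 3 and 4, a share that hardly varied among the 3 low-RIN bladders. In higher-RIN bladders the lowest value was 3.06%, the median 3.42% and the highest 4.17%. The means, 25.1% ± 0.625 (SD, n = 3) and 3.47% ± 0.387 (SD, n = 6), differed 7.25-fold, and untreated bladders lay at 3.31% to 3.62%. Of the 85 genes tested, 83 were higher, 0 were lower, and the median log2 fold change was 4.04 (0.03 over all genes tested, of which 32.4% were higher and 25.7% lower). Rpl7l1, a ribosomal protein-like gene, had a log2 fold change of -0.34 and Rps4l, annotated as a processed pseudogene, one of -0.72. Proteins of the small and the large subunit had similar log2 fold changes, with medians of 4.06 over 34 genes and 4.04 over 51.

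Within the class, the shorter the coding region, the larger was the gain. Rps29, a protein of the small subunit, was at 5870, 8466 and 5901 CPM (counts per 1000000 counts of the library) in mice 1, 3 and 4, against a lowest value of 266, a median of 289 and a highest value of 404 CPM in higher-RIN bladders. Its log2 fold change was 5.48 (SE 0.22, adjusted p = 1.07e-08 from edgeR). Rpl41 was at 10307, 12650 and 10257 CPM against 674 to 1142 CPM, and its log2 fold change was 4.80 (SE 0.22). At the other end stood Rpl3 and Rpl4, large proteins of the core of the large subunit, with coding regions of 1212 and 1260 bases. Rpl4 was at 1855, 954 and 2002 CPM against 1048 to 1436 CPM, so its levels overlapped between the groups, and its log2 fold change was 1.41 (SE 0.26). Rpl3 had a log2 fold change of 1.55 (SE 0.28), with 1519, 807 and 1847 CPM against 753 to 1376 CPM. In both genes mouse 3 was the lowest of the low-RIN bladders, whereas in Rps29 and Rpl41 it was the highest. The median log2 fold change was 5.05 for 10 genes with a coding region under 300 bases, 4.30 for 31 genes from 300 to under 450 bases, 3.89 for 19 genes from 450 to under 600 bases and 2.88 for 24 genes of 600 bases or more. Rpl10l, a retrocopy without introns, lies off this order at 6.33, with at most 1.79 CPM in low-RIN bladders and at most 0.0897 CPM in the others. Rps27 (log2 fold change 5.41) and Rps27rt (5.41) had nearly equal counts in every library and share most of their sequence, so their values cannot be separated.

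The same order was seen in 3 other multi-subunit machines, which were looked at by coding length after their values had been seen. Most of their subunits work together in a single complex, while some members of the lists, such as Cox6a2, Cox8b and Psmb8, are isoforms that take the place of another subunit in certain tissues or states. Nuclear-encoded subunits of oxidative phosphorylation, the respiratory chain and ATP synthase, held 4.42%, 2.95% and 4.74% of the counts in mice 1, 3 and 4 against 1.44% to 1.98% in higher-RIN bladders. Of 84 tested, 63 were higher and 6 lower (32.4% and 25.7% of all tested genes), with a median log2 fold change of 2.58. Ndufa3, a small accessory subunit of complex I, was at 855, 707 and 880 CPM against 54.1 to 132 CPM (log2 fold change 4.30, SE 0.27). Ndufs1, the largest subunit of the same complex, was at 20.2, 15.6 and 14.1 CPM against 104 to 137 CPM (log2 fold change -1.83, SE 0.22). Subunits of 1 complex thus lay on opposite sides, each without overlap between the groups. Cox7c, a small subunit of cytochrome c oxidase, had a log2 fold change of 3.80 and Atp5e, a small subunit of ATP synthase, one of 3.94. The 6 subunits that were lower in low-RIN bladders are Ndufs1, Ndufv1, Sdha, Uqcrc1, Atp5a1 and Atp5b, among them the catalytic subunits of complex II and of ATP synthase. Sdha was at 66.1, 59.0 and 40.0 CPM against 300 to 352 CPM (log2 fold change -1.54). Atp5b was at 361, 241 and 376 CPM against 1516 to 1939 CPM (log2 fold change -1.33).

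Mitochondrial ribosomal proteins, which translate the messenger RNAs of the mitochondrial genome, gained less. They held 0.811%, 0.576% and 0.981% against 0.365% to 0.501%, and 45 of 77 were higher and 3 lower (32.4% and 25.7% of all tested genes), with a median log2 fold change of 1.20. With the bladder of mouse 6 added to the higher-RIN group the difference in share no longer passed the test (0.289 percentage points). Mrpl33, with a coding region of 198 bases, was at 532, 548 and 747 CPM against 73.1 to 126 CPM (log2 fold change 3.73). Mrps30, with 1329 bases, had a log2 fold change of 0.01 (SE 0.35, adjusted p = 0.984 from edgeR), at 8.15 to 32.1 CPM against 35.5 to 46.5 CPM. Subunits of the proteasome, the protease that degrades ubiquitinated proteins, lost share as a class, with 0.478%, 0.257% and 0.510% against 0.673% to 0.900%. Of 38 tested, 7 were higher and 12 lower, where 32.4% of all tested genes were higher and 25.7% lower, so the share of lower members is near that of all genes. Their median log2 fold change of -0.07 turned to 0.13 with RLE scaling. Among these, the small core subunit Psmb1 was at 525, 345 and 556 CPM against 270 to 375 CPM (log2 fold change 1.71). Psmd2, a large subunit of the regulatory particle with a coding region of 2727 bases, was at 42.5, 32.0 and 31.7 CPM against 428 to 584 CPM (log2 fold change -2.81), and Psmd1 had a log2 fold change of -2.49.

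**Figure D2:**
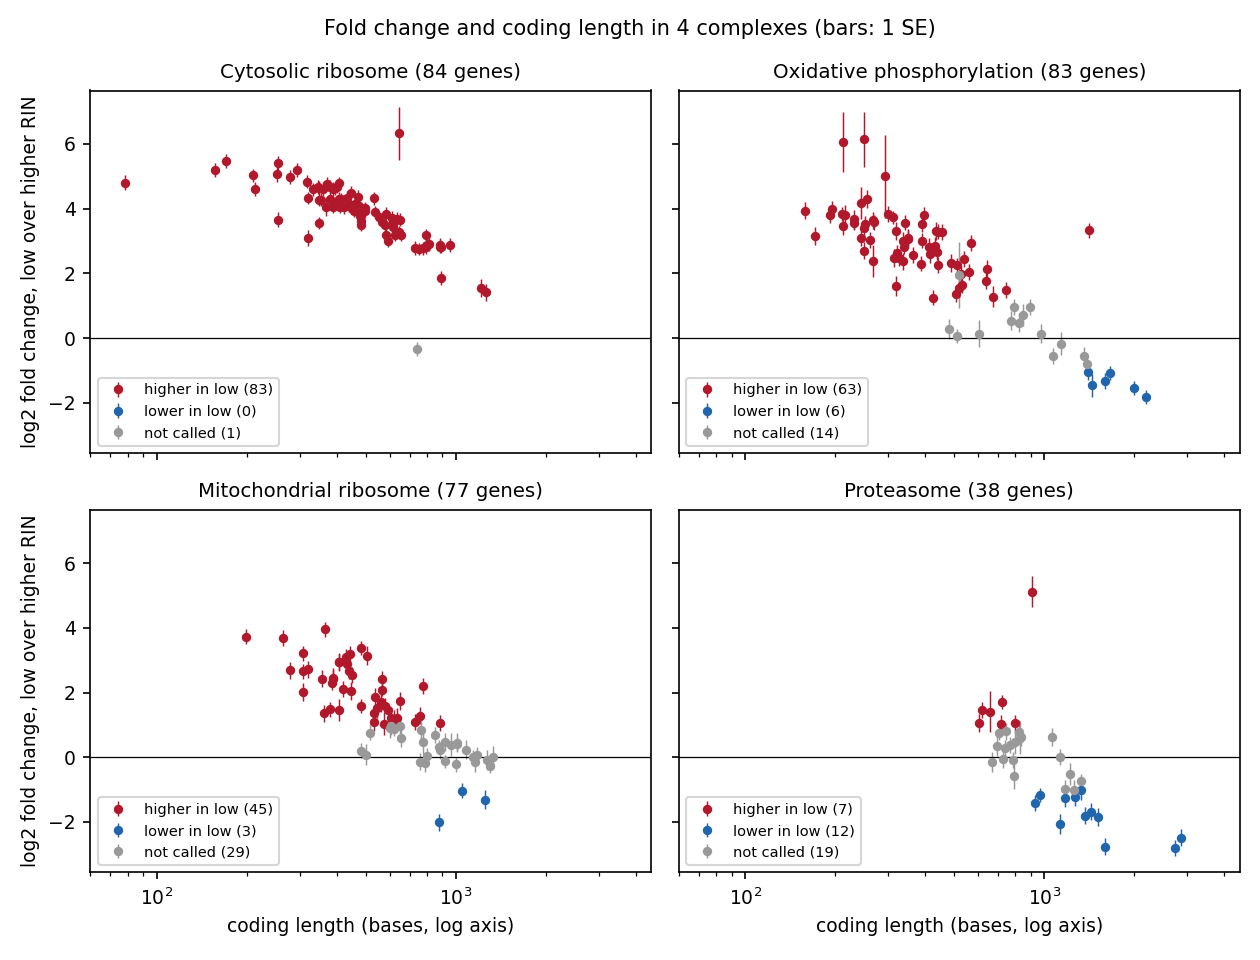
Log2 fold change of low-RIN over higher-RIN bladders (with 1 SE) against coding length in bases (log axis) for the tested members of 4 complexes, coloured by call. In each panel the fold changes tend to fall with coding length, for example with 5.48 for Rps29 and 1.41 for Rpl4 in the cytosolic ribosome, and 4.30 for Ndufa3 and -1.83 for Ndufs1 in oxidative phosphorylation.

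Across the members of a complex, Spearman's rho between coding length and log2 fold change was -0.82 for 84 ribosomal proteins, -0.84 for 83 subunits of oxidative phosphorylation, -0.84 for 77 mitochondrial ribosomal proteins and -0.79 for 38 proteasome subunits. These are descriptions over genes of the same 9 libraries, which share depth and scaling. Coding length is also tied to transcript length, which was not separated from it here. A share within each complex needs no scaling between libraries. Of all counts on a complex, the members below its median coding length took a larger part in low-RIN bladders. In the cytosolic ribosome, members under 456 bases took 51.2%, 57.7% and 50.8% in mice 1, 3 and 4 and 31.7% to 34.6% in higher-RIN bladders. For oxidative phosphorylation the values were 71.4%, 73.8% and 70.2% against 35.1% to 42.3%. For mitochondrial ribosomal proteins they were 81.4%, 84.3% and 81.7% against 52.3% to 58.2%, and for the proteasome 79.8%, 76.8% and 78.8% against 46.2% to 57.9%. The groups did not overlap in any of the 4 complexes. Untreated bladders lay at 33.1% to 33.3%, 36.0% to 37.5%, 54.2% to 55.2% and 45.4% to 47.6%, in the range of the higher-RIN bladders or, for the lowest proteasome value, just under it.

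Over all protein-coding genes the tie to length was looser. Spearman's rho between coding length and log2 fold change was -0.21 over 15661 genes and -0.33 over the 11363 of them with a mean of at least 5 CPM. For the length of the untranslated regions it was -0.15 and -0.14. In 5 equal bins of these genes by coding length, the median log2 fold change was 1.16 in the shortest (up to 744 bases), then -0.01, -0.54 and -0.70, and -0.27 in the longest. The longest genes therefore did not have the lowest median. By the number of exons the medians fell from 1.13 in genes with the fewest exons to -0.51 in those with the most, and by GC content from 0.94 in the bin with the lowest to -0.45 in that with the highest. The level in untreated bladders, which are outside the comparison, gave a wider range than coding length, exons and GC content over all tested genes. The median log2 fold change was 4.10 in the bin with the lowest level, where 78.9% of the genes were higher in low-RIN bladders, and -1.06 in the bin with the highest level, where 51.9% were lower. Among genes of at least 5 CPM the medians by level ran from 0.30 to -1.10, a narrower range than by coding length, from 0.86 to -1.10. A gene of very low level passes the filter on low counts more easily when it is raised in a group, so the first of these values includes the effect of the filter.

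**Figure D3:**
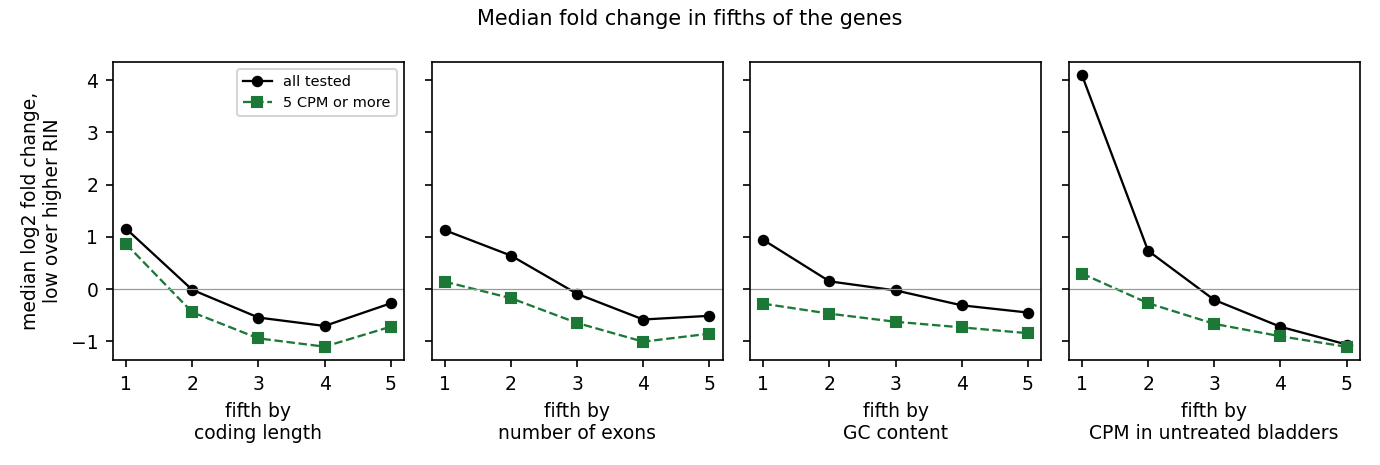
Median log2 fold change of low-RIN over higher-RIN bladders in 5 equal bins of the tested genes, ordered by coding length, number of exons, GC content and CPM in untreated bladders, for all tested genes and for those of at least 5 CPM. The first bin of each panel has the highest median. By level the medians of all tested genes run from 4.10 to -1.06, and those of genes of at least 5 CPM from 0.30 to -1.10, against 0.86 to -1.10 by coding length.

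Other short messenger RNAs rose with the ribosomal ones. Outside the 4 complexes, 861 protein-coding genes with transcripts under 1000 bases were tested, of which 711 were higher and 6 lower (32.4% and 25.7% of all tested genes), with a median log2 fold change of 2.45. A gene of low level passes the filter more easily when it is raised in a group, so this count includes the effect of the filter. Among genes of at least 5 CPM, 44.2% of the bin with the shortest transcripts (up to 1754 bases) were higher and 8.73% lower. Tmsb4x, which encodes the actin-binding peptide thymosin beta 4, was at 16745, 14988 and 21997 CPM against 2088 to 4494 CPM, a log2 fold change of 3.56 (SE 0.25). The S100 proteins, small calcium-binding proteins, held 1.08% ± 0.167 (SD, n = 3) against 0.362% ± 0.0458 (SD, n = 6), and 13 of 15 were higher and 0 lower. S100a6 was at 5547, 6439 and 8083 CPM against 1155 to 1860 CPM. The small proline-rich proteins, which are cross-linked into the cornified envelope of squamous epithelium, held 1.52%, 1.75% and 3.22% against 0.586% to 1.20%, and 10 of 14 were higher. Their difference in share no longer passed the test with the bladder of mouse 6 added to the higher-RIN group (1.22 percentage points). Psca, a short messenger RNA of the urothelial surface, was at 3514, 5332 and 7985 CPM against 847 to 2411 CPM (log2 fold change 2.86, SE 0.35). Translation factors and other messenger RNAs with a terminal oligopyrimidine tract held 1.42% ± 0.259 (SD, n = 3) against 0.971% ± 0.0761 (SD, n = 6), a 1.46-fold difference of the means, which also no longer passed with that bladder added (0.335 percentage points). Ribosomal proteins, whose messenger RNAs carry the same tract, differed 7.25-fold. The part of the tract in either difference was not tested.

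Among genes often used for reference, the outcome varied with scaling. Actb, cytoskeletal actin, was at 501, 537 and 473 CPM against 557 to 1025 CPM, without overlap, and yet had a log2 fold change of 0.51 on the TMM scale, where it was not called, and of -0.50 with library totals alone. Gapdh, a glycolytic enzyme, was at 1078, 1356 and 2304 CPM against 954 to 1380 CPM and was called higher (log2 fold change 1.38, SE 0.27). Eef1a1, the elongation factor, was at 5047, 2809 and 5226 CPM against 3234 to 4410 CPM (log2 fold change 1.16, SE 0.24). The calls of Gapdh and Eef1a1 were lost with library totals alone and without the bladder of mouse 4 (0.83 and 0.85). That of Eef1a1 was also lost with the bladder of mouse 6 added (0.82) and with no filter on low counts (0.94). Their levels overlapped between the groups.

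**Figure D4:**
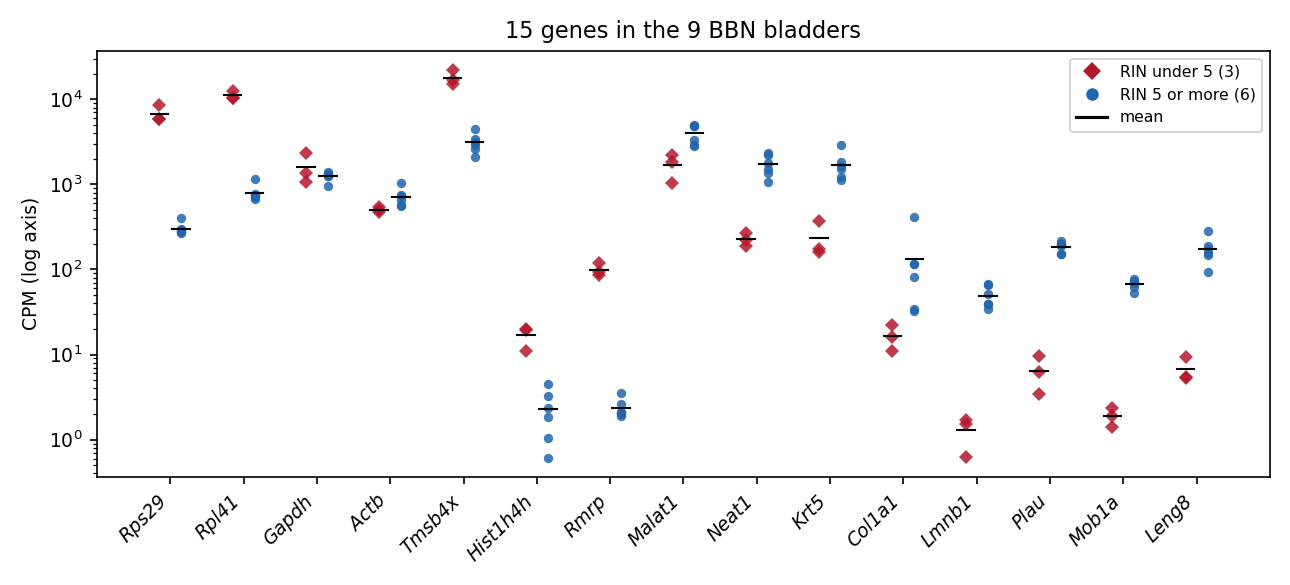
CPM (log axis) of 15 genes in each of the 9 BBN bladders, with the mean of each group as a bar. Rps29, Rpl41, Tmsb4x, Hist1h4h and Rmrp are higher in all 3 low-RIN bladders, Gapdh overlaps, and the genes from Neat1 to Leng8 are lower in all 3.

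Ribosomal RNA, several transcripts without a coding region and the protein-coding gene Lars2 rose. Rn45s, the precursor of the ribosomal RNAs, took 8.78%, 15.4% and 6.16% of the counts in mice 1, 3 and 4 and 0.435% to 0.661% in higher-RIN bladders, an 18.4-fold difference of the means. Lars2, the mitochondrial leucyl-tRNA synthetase, took 5.76%, 5.06% and 4.76% against 1.53% to 2.57%. Whether all counts given to Lars2 came from its messenger RNA was not tested. The 128 small structured RNAs together held 0.0228% ± 0.00646 (SD, n = 3) against 0.00569% ± 0.000783 (SD, n = 6). Rmrp, the RNA of the RNase MRP particle, was at 93.3, 118 and 85.5 CPM against 1.88 to 3.58 CPM, a log2 fold change of 6.37 (SE 0.25). Rpph1, the RNA of RNase P, had a log2 fold change of 6.47 and Vaultrc5, a vault RNA, one of 6.86. Of the 30 structured RNAs that passed the filter, 10 were higher, a share near the 32.4% of all tested genes, and 5 lower, and the median was 0.64 (-0.34 with library totals alone).

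Host genes of small nucleolar RNAs, spliced transcripts that carry these RNAs in their introns and are themselves often degraded by nonsense-mediated decay, held 0.128%, 0.169% and 0.128% against 0.0374% to 0.0502%. Of 16 tested, 15 were higher and 0 lower (32.4% and 25.7% of all tested genes), with a median log2 fold change of 2.53. Gas5 was at 622, 626 and 589 CPM against 180 to 292 CPM (log2 fold change 2.57), and Snhg8 at 102, 126 and 102 CPM against at most 13.2 CPM (log2 fold change 4.22). Only Snhg17 of these 16 was not called (0.36, SE 0.33). Long non-coding RNAs that stay in the nucleus went the other way as a share, with 0.238%, 0.284% and 0.147% against 0.411% to 0.765%, although 8 of 13 were called higher and 2 lower, against the same shares of all tested genes. The difference of -0.379 percentage points was -0.0209 without the 10 most abundant genes of each library and -0.321 with the bladder of mouse 6 added. In both settings it no longer passed the test. The 10 genes were taken library by library, so a gene may be left out of some libraries and kept in others. The share is mainly that of Malat1 and Neat1. Malat1, of nuclear speckles, was at 1846, 2206 and 1038 CPM against 2818 to 4988 CPM, which was not a call on the TMM scale (log2 fold change -0.23, adjusted p = 0.477 from edgeR). Neat1, the scaffold of paraspeckles, was at 271, 188 and 224 CPM against 1077 to 2363 CPM and was called lower (log2 fold change -1.91, SE 0.31). Xist had a log2 fold change of -0.40 and was not called. Meg3, an imprinted RNA, was at 7.11, 13.7 and 4.12 CPM against 0.569 to 9.27 CPM and was called higher (log2 fold change 2.24), a call that was lost with library totals alone (log2 fold change 1.24). Kcnq1ot1, an unspliced antisense RNA of an imprinted cluster, rose to 140, 224 and 103 CPM from 46.0 to 75.2 CPM. MicroRNA genes as a class did not differ beyond the spread (0.0438% ± 0.00374, SD, n = 3, and 0.0409% ± 0.00691, SD, n = 6, exact permutation test, p = 0.548).

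Replication-dependent histones, the 68 genes of the Hist clusters, held 0.0914%, 0.0781% and 0.106% of the counts in mice 1, 3 and 4 and 0.0197% to 0.0403% in higher-RIN bladders, a 3.32-fold difference of the means. With the bladder of mouse 6 added to the higher-RIN group the difference was 0.0531 percentage points and no longer passed the test. Histone variants with a poly(A) tail went the other way, with 0.200% ± 0.0656 (SD, n = 3) against 0.289% ± 0.0504 (SD, n = 6), a difference that no longer passed without the 10 most abundant genes of each library (-0.0444 percentage points). Of 55 replication-dependent genes that passed the filter on low counts, 53 were higher and 0 lower, but a gene seen almost only in low-RIN bladders passes through that level, so this count adds nothing to the share. Of the 10 variants, 4 were higher, near the 32.4% of all tested genes, and 1 lower. Hist1h2ao, a histone H2A gene, was at 123, 124 and 151 CPM against 13.9 to 31.6 CPM, and shares 94.1% of its 25-base stretches with other genes, so its counts and those of Hist1h2ap cannot be separated. Hist1h4h, a histone H4 gene, was at 20.2, 11.04 and 19.5 CPM against 0.615 to 4.51 CPM (log2 fold change 3.93, SE 0.51). Hist1h2bk was at 4.28, 2.98 and 3.54 CPM against 1.01 to 2.67 CPM. The linker histone Hist1h1c was not called (log2 fold change -0.45), and lay at 5.29 to 5.97 CPM against 6.92 to 22.99 CPM. The stem-loop letters were found in 23 of 68 replication-dependent genes (33.8%), in 0 of the 10 variants and in 96 of 16760 other tested genes (0.573%). The genes with the letters, 18 of them tested, had a median log2 fold change of 3.46, and the 37 tested without them one of 2.91. Annotated transcripts can end past or before the stem-loop, so a missing match says only that the letters are not in these 100 bases. The variants do not share a short transcript. H3f3b, with a coding region of 411 bases in a transcript of 2514 bases, was at 597, 256 and 591 CPM against 1066 to 1861 CPM (log2 fold change -0.50, not called). H2afz, with 387 bases in a transcript of 1069 bases, had a log2 fold change of 1.49.

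Genes of sensory receptors, most of them near 0 CPM in untreated bladders, were counted far more often in low-RIN libraries. Olfactory, vomeronasal and taste receptors, 1487 genes of sensory neurons with mostly single-exon coding regions, held 0.211%, 0.350% and 0.158% of the counts in mice 1, 3 and 4 and 0.00443% to 0.0220% in higher-RIN bladders, a 22.4-fold difference of the means. To set libraries of unequal depth side by side, each was thinned at random to 3557553 counts. At that depth 956, 1090 and 918 receptor genes had a count in mice 1, 3 and 4, against 84 to 378 in higher-RIN and 22 to 174 in untreated bladders (two-sided exact permutation test of low against higher RIN, p = 0.0238). Of the 1487 genes, 285 passed the filter on low counts and 282 of these were called higher, but a gene seen almost only in low-RIN bladders passes through that level, so this count adds nothing to the share. Among the receptors with the highest levels, Olfr613 was at 419, 722 and 318 CPM against 11.5 to 47.2 CPM, and the pseudogene Olfr856-ps1 at 835, 1359 and 536 CPM against 18.5 to 84.2 CPM. Olfr78, Olfr56 and Olfr558 were not called, with overlapping levels of at most 4.26 CPM in any of the 9 bladders.

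**Figure D5:**
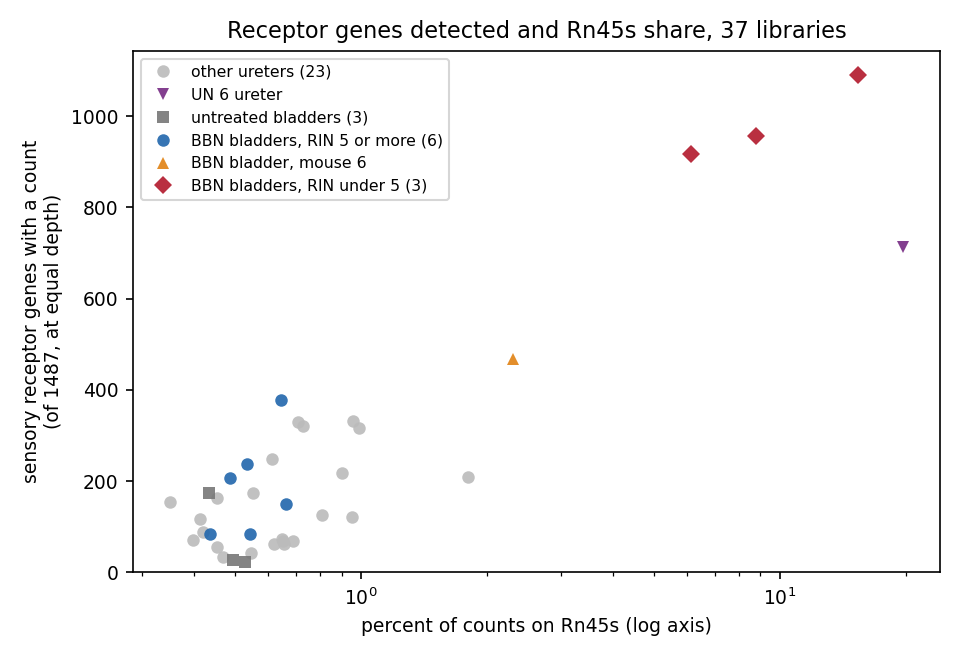
Number of the 1487 sensory receptor genes with a count after thinning to 3557553 counts, against the percent of counts on Rn45s (log axis), for the 37 libraries of the series. The 3 low-RIN bladders have 918 to 1090 receptor genes and the higher-RIN bladders 84 to 378, and between the 2 ranges lie the bladder of mouse 6 (468) and UN 6 (714).

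The receptors stand for a wider group. Of 6748 genes with under 0.1 CPM in untreated bladders, 59.3%, 68.8% and 57.2% had a count at equal depth in mice 1, 3 and 4, against 10.2% to 27.3% in higher-RIN bladders. In all, 20567 to 21727 genes were detected in low-RIN and 16227 to 18391 in higher-RIN bladders at that depth (exact permutation test, p = 0.0238). With at least 5 counts asked of a gene the means were 16519.7 and 13989 genes at that depth (exact permutation test, p = 0.0238), but 11162 and 11910 genes at 1000000 counts, where the groups overlapped (exact permutation test, p = 0.190). Among the 6748 genes, Spearman's rho between the mean CPM in low-RIN bladders and the length of the introns was 0.49, and that with transcript length 0.46. These are descriptions over genes of the same libraries. Over 1474 receptors, rho with transcript length was 0.02. Examples with long genes were Csmd3, Ncam2 and Galnt13, known from the brain. Csmd3 spans chromosome 15 from 47580637 to 48792063 and was at 39.5, 75.0 and 22.9 CPM against 0.331 to 1.79 CPM (log2 fold change 6.77, SE 0.45). Ncam2 was at 21.5, 36.0 and 14.3 CPM against 0.0219 to 0.957 CPM, Galnt13 at 8.204 to 27.5 CPM against at most 0.818 CPM. Pou3f2, an intronless gene of neural precursors, was at 20.8, 28.2 and 3.78 CPM against at most 0.472 CPM. In all 4 genes mouse 3 was the highest and mouse 4 the lowest of the low-RIN bladders, as for Rn45s and the receptors. Predicted genes named Gm with a number held 1.21% ± 0.204 (SD, n = 3) against 0.584% ± 0.0636 (SD, n = 6), and RIKEN clone genes 1.71% ± 0.135 (SD, n = 3) against 1.25% ± 0.0442 (SD, n = 6). Gm13154, at 26.6, 45.8 and 15.7 CPM against 0.0721 to 0.924 CPM, had a log2 fold change of 6.87.

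Some genes with the same order among mice 1, 3 and 4 were abundant. Mrgpra6, a receptor of sensory neurons, was at 5727, 11910 and 4316 CPM in mice 1, 3 and 4 against 136 to 500 CPM, a log2 fold change of 5.79 (SE 0.39). Zfp488, a transcription factor of oligodendrocytes, was at 1325, 2313 and 975 CPM against 36.9 to 146 CPM. Ccdc36, a gene of meiotic recombination, had a log2 fold change of 6.87. Tyms, thymidylate synthase, and Luc7l2, a splicing factor, departed from their own lists. Tyms was at 458, 804 and 323 CPM against 59.1 to 104 CPM, while 21 of 30 cell cycle genes were lower and 2 (Tyms and Birc5) higher. Luc7l2 was at 204, 348 and 136 CPM against 39.7 to 62.3 CPM, while 19 of 35 splicing factors were lower and 2 (Luc7l2 and Hnrnpa0) higher. In these genes too mouse 3 was the highest and mouse 4 the lowest.

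Splicing, cell cycle and RNA decay genes, and tubulins and actins, were more often lower than higher, where 25.7% of all tested genes were lower. The splicing factors had a median log2 fold change of -1.08. Hnrnpk, an RNA-binding protein of the spliceosome, was at 112, 102 and 114 CPM against 970 to 1377 CPM (log2 fold change -2.35, SE 0.23), and Srsf1 had a log2 fold change of -2.55. The cell cycle genes had a median of -1.69, with Mcm4, a subunit of the replicative helicase, at -2.81 and Mki67 not called (-0.69). Of the RNA decay machinery, 14 of 32 genes were lower and 3 higher. Of ribonucleases and their inhibitor 1 of 8 was lower and 3 were higher, a share of higher genes near the 32.4% of all tested genes. Rnase1, a secreted ribonuclease, had too few counts to be tested, with 0.158, 0 and 0 CPM against 0.236 to 4.25 CPM. Tubulins and actins held 0.270% ± 0.0642 (SD, n = 3) against 0.845% ± 0.123 (SD, n = 6), and 7 of 20 were lower, not far from the share of all tested genes, and 1 higher. Collagens, the fibrous proteins of the matrix, held 0.0607% ± 0.0104 (SD, n = 3) against 0.212% ± 0.131 (SD, n = 6), while 17 of 42 genes were called higher and 8 lower, not far from the shares of all tested genes (32.4% and 25.7%). Their median log2 fold change was 0.98 with TMM, 1.19 with RLE and -0.04 with library totals alone, so the share and the TMM median differ in sign. Zinc finger proteins held 0.469% ± 0.109 (SD, n = 3) against 0.751% ± 0.0621 (SD, n = 6), with 78 genes higher and 78 lower of 353, the first below and the second near the share of all tested genes. Their median log2 fold change of -0.20 turned to 0.01 with RLE scaling and to 0.06 after thinning. Their difference in share, -0.282 percentage points, was -0.170 without the 10 most abundant genes of each library and -0.231 with the bladder of mouse 6 added. In both settings it no longer passed the test.

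The 4 lists of stress genes also had more genes lower than higher. Immediate early genes, which are transcribed within minutes of a stimulus and have short-lived messenger RNAs, counted 15 of 31 lower and 1 higher, with a median log2 fold change of -1.05. Jun was at 14.8, 11.2 and 10.1 CPM against 104 to 161 CPM (log2 fold change -2.37), and Egr1 at 12.3, 5.62 and 8.44 CPM against 58.5 to 206 CPM (log2 fold change -2.68). Fos was not called (-1.05, adjusted p = 0.117 from edgeR). Of heat shock genes, 10 of 18 were lower and 3 higher. Hspa1a, an inducible chaperone, was at 8.37, 4.08 and 4.35 CPM against 66.0 to 227 CPM (log2 fold change -3.53). Genes of the unfolded protein response counted 7 of 18 lower and 3 higher. Hypoxia genes counted 7 of 21 lower and 1 higher. Of all tested genes 25.7% were lower, and the share of hypoxia genes is near it.

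The single genes with the largest losses were taken among called genes whose groups did not overlap. Among those of at least 100 CPM on average the 8 largest losses were those of Krt6b, Adh7, Gabrp, Plau, D17H6S56E-5 (log2 fold change -3.86), Leng8 (-3.71), Krt16 and Dsg3. The keratin Krt6b had a log2 fold change of -4.38, Krt16 one of -3.59 and Dsg3, a desmosomal cadherin, one of -3.59. Krt6b reached 1894 CPM in the bladder of mouse 7 and Krt16 810 CPM, and without that library their values were -3.04 and -2.19. Adh7, a retinol dehydrogenase of epithelia, was at 7.26, 9.84 and 23.4 CPM against 326 to 1000.3 CPM (log2 fold change -4.20, SE 0.57). Plau, urokinase, was at 9.63, 6.18 and 3.45 CPM against 150 to 215 CPM (log2 fold change -3.87), and Gabrp, an ion channel subunit, at 9.33 to 21.9 CPM against 230 to 822 CPM (log2 fold change -4.02). Among those of at least 5 CPM the 10 largest losses included Krt6b and Adh7 again. Mob1a, a cofactor of Hippo signaling kinases, was at 2.37, 1.41 and 1.92 CPM against 52.4 to 77.5 CPM (log2 fold change -4.10, SE 0.30). Its coding region has 651 bases in a transcript of 4412 bases, so a gene with a short coding region is among these 10. Lmnb1, a lamin of the nuclear envelope, was at 0.631, 1.69 and 1.53 CPM against 34.2 to 66.9 CPM (log2 fold change -4.27). Stra6 (-4.42), Krt80 (-4.25) and Pcdhgc3 (-4.58) were also among these 10. Cldn6, an embryonic claudin and 1 of these 10, had at most 0.128 CPM in low-RIN bladders against 2.69 to 20.8 CPM. The other 2, the microRNA genes Mir704 and Mir5114, at most 0.158 and 0.422 CPM against 4.13 to 10.3 and 3.61 to 16.9 CPM, lie within Pdia4 and Scd2 on the same strand, which had log2 fold changes of -3.29 and -2.21, so their counts cannot be told apart from those of these genes.

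Markers of the bladder were present in all 9 libraries. The summed level of 24 urothelial genes was 6892 to 13317 CPM in low-RIN, 17650.3 to 28390.5 CPM in higher-RIN and 30023 to 30975 CPM in untreated bladders, and 14 of them were lower and 1 (Psca) higher. Krt5, the keratin of basal cells, was at 162, 175 and 366 CPM against 1116 to 2891 CPM (log2 fold change -1.82), and Krt14 had a log2 fold change of -2.08. Upk2, a uroplakin of umbrella cells, overlapped, at 7.59 to 19.7 CPM against 14.2 to 85.5 CPM. Smooth muscle genes were lower in 6 of 20 and higher in 1, where 25.7% of all tested genes were lower. Myh11, the myosin of smooth muscle, was at 150, 115 and 131 CPM against 334 to 1694 CPM (log2 fold change -1.85), while Actg2, an actin of the same cells with a short transcript, had a log2 fold change of -0.02. Of fibroblast genes 7 of 18 were lower, not far from the share of all tested genes, and 2 higher, with Col1a1 at -1.92, a call that was lost without the bladder of mouse 1 (-1.72). In bulk tissue fewer cells of a type and less RNA per cell cannot be told apart, and whether mice 1, 3 and 4 had other proportions of cells was not tested.

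Markers of fat, red blood cells and skeletal muscle were mostly higher in low-RIN bladders, where 32.4% of all tested genes were higher. Adipocyte genes were higher in 9 of 11, with summed levels of 192 to 6289 CPM against 194 to 1090.04 CPM. No adipocyte gene lay higher in all 3 low-RIN bladders than in every higher-RIN bladder. Fabp4, a fatty acid carrier of fat cells, was at 1477, 503 and 81.2 CPM against 24.4 to 180 CPM, so mouse 4 lay within the range of the higher-RIN bladders. Red blood cell genes were higher in 6 of 7, at 1058 to 4597 CPM against 32.3 to 809 CPM, and those of skeletal muscle in 10 of 12. The summed levels of skeletal muscle genes overlapped almost fully, at 59.2 to 210 CPM against 22.0 to 212 CPM, and no member had groups without overlap. T cell genes were higher in 6 of 15 and lower in 1, at 30.9 to 85.7 CPM against 15.7 to 108 CPM. B and plasma cell genes were higher in 5 of 9, macrophage genes in 6 of 16, neutrophil genes in 5 of 10, mast cell genes in 2 of 10, endothelial genes in 2 of 12 and nerve genes in 4 of 14. The shares for T cells, macrophages and nerve were near that of all tested genes, and those for mast cells and endothelium were below it. In the last 6 lists at most 2 genes were lower, and their summed levels overlapped between the groups except for neutrophil genes (244 to 256 CPM against 430.1 to 2256 CPM) and nerve genes (76.1 to 109 CPM against 247 to 464 CPM), whose sums were lower. Ptprc, the common leukocyte antigen, was not called (0.23, SE 0.61). The part of these cells in the gains of share was not tested.

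The 3 low-RIN bladders were not alike. Mouse 3 had the lowest total, the highest shares of Rn45s and receptors and the lowest shares of oxidative phosphorylation and proteasome genes. Saa1, an acute phase protein, was at 2059 CPM in mouse 3, at 1.97 and 1.02 CPM in mice 1 and 4 and at most 0.315 CPM in higher-RIN bladders. Saa1 had the largest log2 fold change among called genes of at least 5 CPM without overlap (13.72, SE 2.07), followed by Wfdc21 (8.08) and Pzp (7.396), and without mouse 3 the values were 4.91, 4.92 and 4.76. Without mouse 3 the difference of the shares fell from 9.57 to 6.92 percentage points for Rn45s and from 0.229 to 0.174 for receptors. The difference for ribosomal proteins stayed between 21.4 and 22.0 points whichever of the 9 libraries was left out.

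Libraries outside the 2 groups held some of the same classes. The bladder of mouse 6 had 16.01% of its counts on ribosomal proteins, 2.30% on Rn45s and 0.0327% on receptors, each between the 2 groups. Members below the median coding length took 61.1% of its oxidative phosphorylation counts and 72.3% of its proteasome counts, also between the groups. Some other classes of this bladder were not intermediate. Oxidative phosphorylation (4.372%) and replication-dependent histones (0.106%) lay within the low-RIN range. So did zinc finger proteins, nuclear long non-coding RNAs and transcripts of 4000 bases or more. Mitochondrial ribosomal proteins (1.059%) lay above every low-RIN bladder. Proteasome genes (0.974%) lay above every higher-RIN bladder, on the side away from the low-RIN ones. UN 6, the ureter of the non-cancer side of the same mouse, had 7.996% on ribosomal proteins, 19.7% on Rn45s and 0.143% on receptors, and 54.4% and 70.6% of its counts on ribosomal proteins and oxidative phosphorylation lay on the shorter members. In the ureters of mice 1, 3 and 4 (6 libraries), Rn45s took 0.551% to 1.80%, ribosomal proteins 2.70% to 6.62% and receptors 0.00418% to 0.0204%, below each of the 3 low-RIN bladders. In the other 17 ureters, without UN 6, these classes took 0.349% to 0.989%, 1.30% to 5.03% and 0.00294% to 0.0222%. The highest values of Rn45s and ribosomal proteins in the ureters of mice 1, 3 and 4 thus lay above those of the other 17. The 3 low-RIN bladders and 3 of the higher-RIN bladders had library codes in a first range, and the other 3 in a second. Within the first range, 35 of the 36 class shares kept their direction and 31 had groups without overlap, where 3 against 3 libraries cannot give a p under 0.1.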

How the data were processed

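The authors extracted total RNA from tissue kept in RNAlater with miRNeasy and made libraries with SMARTerHT and Nextera XT. The submitters' processing notes name TopHat2 2.1.1 and Cuffdiff 2.2.1 and the build GRCm38/mm10, and the program that counted reads is not given in the sources used here. The deposited table holds expected counts (estimated counts that need not be whole) for 24421 genes in 37 samples, not normalized, which were rounded to whole numbers. Groups follow the labels, and the split of the BBN bladders at a RIN of 5 follows the sample information that accompanies the study. Class members and gene lists were chosen with earlier results of these data known, and several lists and the use of coding length were added after values had been seen.

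Counts were tested in R 4.3.3 with edgeR 4.0.16 (filterByExpr, TMM scaling, quasi-likelihood test, Benjamini-Hochberg adjustment over all genes tested). A gene was called at an adjusted p under 0.1 and at least 2-fold. DESeq2 1.42.0 and limma 3.58.1 were alternatives. Class shares were computed on all counts with Python 3.11.15, numpy 2.4.6 and pandas 2.3.3, and compared by two-sided exact permutation tests (scipy 1.17.1, 84 arrangements). Figures used matplotlib 3.10.9. Lengths, exons and sequences came from GENCODE vM21 on GRCm38, which matched 23384 of the genes. Transcript length and exons are those of a gene's longest annotated transcript of its own type, which need not be the one expressed. Rps15a, with a coding region of 393 bases, thus counts as a transcript of 5179 bases. Coding length was taken from the principal transcript where the annotation names one. The edgeR test was checked on simulated counts in which a small part of the genes changed, equally in both directions. These counts held no shift in composition like that of the low-RIN libraries, so the check does not cover the dependence on scaling. Totals of 3557697 to 15104379 counts limit the precision, most in the bladder of mouse 3. No 2 libraries of a group agreed within sampling noise.

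Genes were named by a rule. It took the 10 called genes with the largest and the 10 with the smallest log2 fold change among those of at least 5 CPM on average whose groups did not overlap, 8 in each direction among those of at least 100 CPM, the most abundant and most changed members of each list, and a fixed set of reference and marker genes. Genes outside the rule (Rpl10l, Rpl7l1, Rps4l, Birc5 and Hnrnpa0) were singled out after their values were seen. Alternatives changed the scaling, the filter on low counts, the test, the samples, the depth and the denominator of the shares. Comparisons of the ureters and the authors' own comparisons were not used here.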

Additional observations from a re-analysis of the deposited data

Results flagged for a closer look

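Among the 6 higher-RIN bladders, single libraries stood far from the other 5 in 10 of 38 groups of values checked by Dixon's test, where chance gives about 1 in 20. The bladder of mouse 9 accounted for 7 of them. It had 0.384% of its counts on polyadenylated histone variants (nearest other 0.298%), 0.0203% on ribosomal protein pseudogenes (0.0164%) and 0.501% on mitochondrial ribosomal proteins (0.409%). By transcript length it held 0.680% under 500 bases (0.517%), 9.55% from 500 to 1000 bases (7.19%), 27.1% from 1000 to 2000 bases (23.99%) and 20.5% at 4000 bases or more (26.0%). These values share the same counts, so they are not independent. The bladder of mouse 7 had 1.16% on RIKEN clone genes (1.25%) and 1.72% on genes under 1 CPM in untreated bladders (1.05%), and that of mouse 5 had 94.6% on transcripts of 2 or more exons (94.8%).

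In libraries that the comparison leaves out, values lay above those of the untreated controls. The bladder of mouse 6 had 16.01% of its counts on cytosolic ribosomal proteins (highest untreated bladder 3.62%), 2.30% on Rn45s (0.529%), 0.0327% on sensory receptors (0.0100%) and 0.106% on replication-dependent histones (0.0218%). UN 6 had 7.996% on cytosolic ribosomal proteins (highest healthy ureter 2.32%), 19.7% on Rn45s (0.726%), 0.143% on receptors (0.0184%) and 0.0370% on replication-dependent histones (0.0365%).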

How the results depend on the processing

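Shares of counts are given here as low-RIN minus higher-RIN bladders in percentage points. The number of genes called higher was 9550 with no filter on low counts, and the number called lower was 8348 with library totals alone. The other alternatives gave counts within 1.5 times those reported. With the bladder of mouse 6, whose column name carries T in place of N, added to the higher-RIN group, the tests no longer passed for histones (0.0531), nuclear long non-coding RNAs (-0.321), zinc finger proteins (-0.231), mitochondrial ribosomal proteins (0.289), translation factors (0.335) and small proline-rich proteins (1.22), and the share of transcripts of 1000 to 2000 bases turned to -0.702. Without the 10 most abundant genes of each library, histone variants (-0.0444), nuclear long non-coding RNAs (-0.0209) and zinc finger proteins (-0.170) no longer passed, while microRNA genes (0.0149), long non-coding RNA genes (1.02), transcripts of 1000 to 2000 bases (6.45) and genes under 1 CPM in untreated bladders (1.92) did. These 10 genes were chosen within each library and can differ between the groups, so part of such changes can come from that choice. With Rn45s and Lars2 out of the denominator, chosen after seeing the data, histone variants (-0.0619) no longer passed, transcripts of 1000 to 2000 bases (4.41) and genes under 1 CPM in untreated bladders (1.63) did, and genes not in GENCODE turned to -0.166. Within the first range of library codes microRNA genes turned to -6.39e-05.

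Leaving out each library in turn gave 2.08 to 2.97 for oxidative phosphorylation, 0.0844 to 0.105 for hosts of small nucleolar RNAs, 0.174 to 0.270 for receptors, 6.92 to 11.5 for Rn45s, 0.127 to 0.139 for ribosomal protein pseudogenes and 0.852 to 1.70 for small proline-rich proteins. It gave -12.1 to -7.13 for protein-coding genes, 6.52 to 11.1 for genes not in GENCODE, 4.29 to 4.71 for transcripts under 500 bases, -0.579 to 2.21 for those of 1000 to 2000 bases, 0.541 to 1.58 for genes under 1 CPM in untreated bladders, 0.209 to 0.447 for transcripts of 1 exon and -11.5 to -6.73 for those of 2 or more. For histone variants with a poly(A) tail it gave -0.109 to -0.0506.

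Among genes of at least 5 CPM the median log2 fold changes of the first and last of 5 bins were 0.86 and -0.72 by coding length, 0.77 and -0.46 by transcript length, 0.14 and -0.85 by exons, 0.14 and -0.46 by intron length, and -0.28 and -0.84 by GC content. The log2 fold change of Actg2 turned to 0.18 with DESeq2 and with RLE, 0.028 with a filter of 1 CPM in 3 samples and 0.30 after thinning, with -0.60 to 0.27 on leaving out each library. That of Upk2 turned to 0.064 with DESeq2, 0.072 with RLE, 0.67 in the first range of library codes, 0.034 with limma and 0.42 after thinning, with -0.61 to 0.42 on leaving out each library. Ptprc turned to -0.071 in the first range, -0.83 with library totals and -0.00372 with no filter, Actb to -0.50 with library totals and Malat1 to 0.12 after thinning. The causes were not tested. Of 43 lists, 32 kept the sign of their median in every alternative in which it was computed (19 or 20). No paired analysis was possible because no mouse is in both groups. Leaving out mitochondrial genes was not run, since none are in the table analysed here. Depth limits the bladder of mouse 3 most.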
